A study of Rattus norvegicus with 12 samples.

Results

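MHC class II molecules and the proteins needed to make them were followed in the left ventricle (LV) of rats after myocardial infarction (MI). The 8 genes were Cd74, RT1-Da, RT1-Db1, RT1-Ba, RT1-Bb, RT1-DMa, RT1-DMb and Ciita. They were taken by symbol from the 34599 genes counted by RNA-seq, and all 8 matched 1 row each. RNA came from 12 male Sprague Dawley rats, an outbred stock, with 4 rats in each of 3 groups, 1 day after surgery. The rats' age is not given for this experiment in the sources used here. Sham rats had the chest opened with no ligation of a coronary artery. MI rats had the left anterior descending coronary artery ligated and received no patch. iCarP+/Light+ rats had the same ligation, an injection of the green alga Chlorella vulgaris into the infarcted LV, the iCarP patch (an illuminative cardiac patch that scatters light) stuck to the heart with the CCS@gel adhesive, and illumination through it. The treatment was a combination of alga, patch, adhesive and illumination, whose parts cannot be told apart here, and a group with the patch but no light was not analysed here. The tissue was taken from the infarct region, and the labels name it as LV.

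MHC class II molecules are pairs of an α and a β chain that show peptides from the endosomes to CD4 T cells. The invariant chain, encoded by Cd74, binds new class II pairs, blocks their groove and takes them to the endosome, where DM removes its last fragment and helps peptides to bind. CIITA is the transactivator: it does not bind DNA itself but docks on a complex of RFX, CREB and NF-Y on the X and Y boxes of class II promoters, and it is induced by interferon γ. Dendritic cells, B cells and many macrophages carry class II in the heart. Here RT1-D (Da and Db1) and RT1-B (Ba and Bb) encode the classical chains of the rat, and RT1-DMa and RT1-DMb the chains of DM.

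In the deposited table, in rn6 coordinates, the RT1 genes lay on chromosome 20, Cd74 (ENSRNOG00000018735) on chr18:56071478-56080849 and Ciita (ENSRNOG00000002659) on chr10:5213350-5260608. RT1-Bb (ENSRNOG00000032708, chr20:4039413-4049711), RT1-Ba (ENSRNOG00000000451, chr20:4066132-4070721), RT1-Db1 (ENSRNOG00000033215, chr20:4087618-4097190) and RT1-Da (ENSRNOG00000032844, chr20:4127644-4132616) followed one another. RT1-DMb (ENSRNOG00000049491, chr20:3945601-3952846) and RT1-DMa (ENSRNOG00000047864, chr20:5240975-5244386) were placed on either side of them. All 8 were listed as protein coding, and counts were of reads over whole genes.

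The promoters are shown because the X and Y boxes are what these genes are known to share. RefSeq promoter sequences (GRCr8, 250 bases before to 50 bases after the gene start) were found for 6 of the 8 genes, the exceptions being RT1-DMb and Ciita. In the 80 bases around the Y box, given from 5′ to 3′ on the strand of the gene, capitals mark the Y box, CCAAT, which appears as ATTGG where it lies on the other strand, and any match to the X box in its looser form.
RT1-Da, chr20:4515306-4515385, plus strand: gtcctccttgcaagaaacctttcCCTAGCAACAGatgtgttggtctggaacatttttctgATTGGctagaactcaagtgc
RT1-Db1, chr20:4560223-4560302, minus strand: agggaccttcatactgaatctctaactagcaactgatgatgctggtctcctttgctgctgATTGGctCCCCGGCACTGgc
RT1-Ba, chr20:4576954-4577033, plus strand: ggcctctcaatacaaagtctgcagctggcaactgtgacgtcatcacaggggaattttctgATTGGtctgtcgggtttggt
RT1-Bb, chr20:4604160-4604239, minus strand: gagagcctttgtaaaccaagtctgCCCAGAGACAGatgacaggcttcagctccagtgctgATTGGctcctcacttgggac
RT1-DMa, chr20:4712380-4712459, minus strand: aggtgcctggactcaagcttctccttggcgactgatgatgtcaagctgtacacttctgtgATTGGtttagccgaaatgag
Cd74, chr18:56526957-56527036, plus strand: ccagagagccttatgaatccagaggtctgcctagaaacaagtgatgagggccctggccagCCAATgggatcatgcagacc

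All 6 promoters held CCAAT on one strand or the other, as did 37.5% of 33469 promoters of the same length. The match lay at -49 from the gene start in RT1-Da, -43 in RT1-Ba and -189 in Cd74. The X box (searched on both strands) in its strict form was found in RT1-Da alone among the 6, against 1.26% of all promoters. With a looser form, which fixes fewer of the 11 letters and also covers the strict form, RT1-Da, RT1-Db1 and RT1-Bb matched, against 17.2% of all promoters. In RT1-Da and RT1-Bb this match began 37 and 36 bases before the Y box, and in RT1-Db1 it lay downstream of the Y box. The 7 letters TGATTGG, which contain the Y box and were chosen after the sequences had been read, were present in the 5 RT1 promoters and absent from that of Cd74, against 7.06% of all promoters. Only exact matches were searched, so a promoter without a match may still hold an X box. Upstream of the Y box, RT1-Db1 (actagcaactg), RT1-Ba (gctggcaactg), RT1-DMa (cttggcgactg) and Cd74 (cctagaaacaa) had stretches that miss the looser form by a single letter. These were seen once the sequences had been read, and their share among all promoters was not counted. The matches describe letters and not occupied sites.

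Between 14064414 and 17136958 reads were counted on genes in each rat. Library sizes were adjusted with TMM scaling in edgeR, which allows for unequal composition (factors 0.784 to 0.856 in Sham rats, 1.15 to 1.26 in MI rats and 0.960 to 1.05 in iCarP+/Light+ rats). Levels are given as CPM, the read count relative to the TMM-scaled library size. A total of 3 reads, taken as the lowest count that can be read, was 0.144 to 0.228 CPM. Mitochondrial genes took 22.8 to 28.9% of the counts in Sham rats, 8.52 to 11.5% in MI rats and 7.14 to 14.2% in iCarP+/Light+ rats. Cardiomyocyte genes (Myh6, Tnnt2, Actn2, Ryr2 and Pln) were present in every rat, with summed CPM of 22812 to 24889.8 in Sham rats, 1189 to 2696.68 in MI rats and 1130.82 to 3123.14 in iCarP+/Light+ rats. The 3 comparisons were drawn from a single edgeR quasi-likelihood fit to 15101 genes, with p-values adjusted by the Benjamini-Hochberg method over all of them and a threshold of 0.05. Each group enters 2 of the 3 comparisons, which are therefore not independent. In such bulk tissue, fewer cells of a type and less RNA per cell cannot be told apart.

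Cd74 was the most abundant of the 8 genes per kilobase of gene length. In Sham rats its level was 541 ± 122 CPM per kb (SD, n = 4), above RT1-Da at 36.8 ± 19.4 (SD, n = 4). RT1-Ba at 10.7 ± 8.38 and RT1-Db1 at 9.10 ± 4.10 came next (SD, n = 4), with overlapping ranges of rats. RT1-Bb at 3.28 ± 1.69, RT1-DMb at 1.57 ± 2.73 and Ciita at 1.17 ± 0.586 followed (SD, n = 4), and neighbours among them also overlapped. RT1-DMa had the lowest mean, 0.227 ± 0.141 CPM per kb (SD, n = 4). The ranks of both DM genes rest on a single row each of the count table, whose levels are uncertain because a second row exists for each chain. In MI rats Cd74 at 244 ± 55.7 and RT1-Da at 36.0 ± 7.99 CPM per kb (SD, n = 4) still led without overlap. RT1-DMa, at 3.82 ± 0.999 CPM per kb (SD, n = 4) in MI rats, then overlapped RT1-Db1, RT1-Ba, RT1-DMb and RT1-Bb. In iCarP+/Light+ rats the order again began with Cd74 (167 ± 52.7) and RT1-Da (26.1 ± 9.76 CPM per kb, SD, n = 4). Ciita had the lowest mean in both ligated groups, at 1.49 ± 0.568 and 1.01 ± 0.209 CPM per kb (SD, n = 4).

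After infarction the invariant chain fell and 1 DM chain rose, while the classical D chains and Ciita did not pass the test. Of the 8 genes, 1 was higher (RT1-DMa) and 2 were lower (Cd74 and RT1-Ba) in MI than in Sham rats, where 63.8% of all genes tested passed (30.2% higher and 33.6% lower). Ranges of rats were separate for RT1-DMa (higher) and Cd74 (lower), as they were for 59% of all genes (27.6% higher and 31.4% lower). Their median log2 fold change was -0.24, beside -0.06 over all genes tested. Without Sham rat 3, which stood apart for RT1-DMb, 2 were higher (RT1-DMa and RT1-DMb) and 1 was lower (Cd74).

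**Figure D1:**
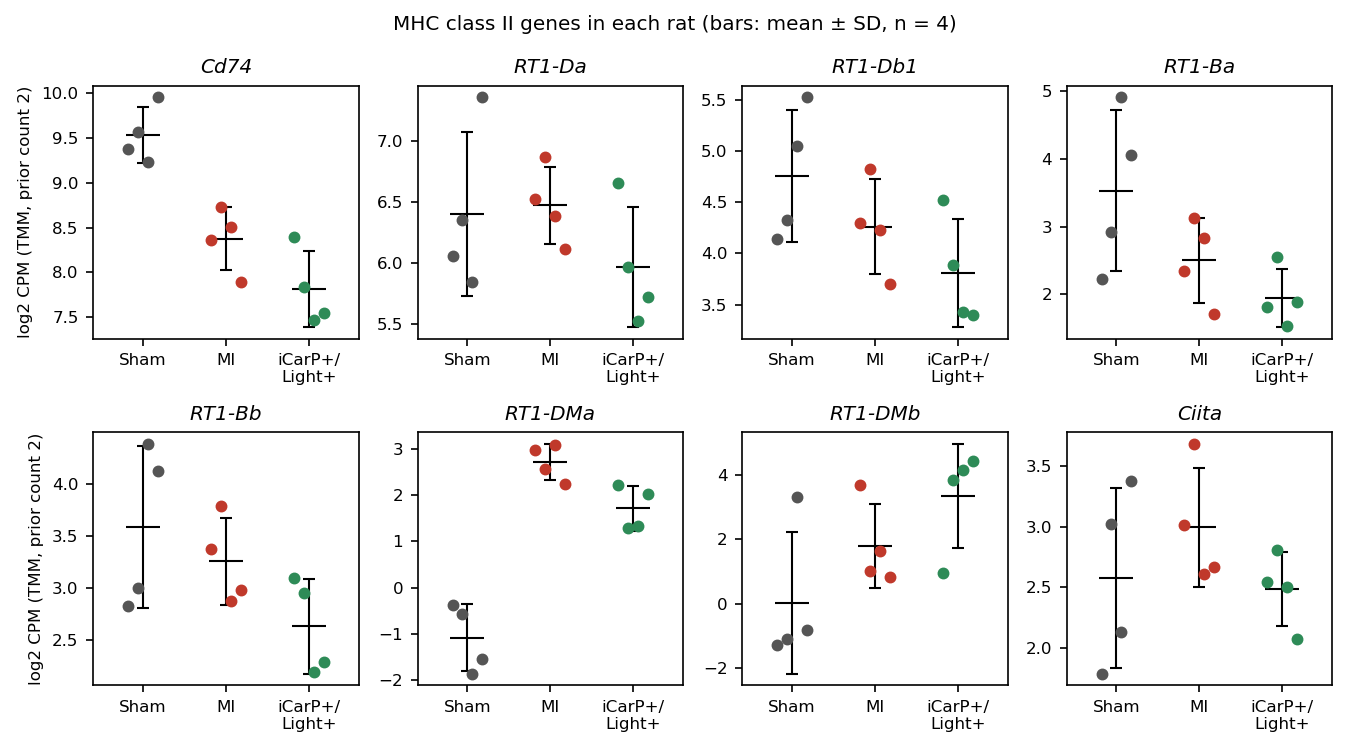
Log2 CPM (TMM-scaled, prior count 2) of the 8 class II genes in each rat, 1 panel per gene with its own vertical axis. Points are rats, horizontal lines are group means and error bars are SD (n = 4). The Cd74 points of all 4 Sham rats lie above those of all MI and iCarP+/Light+ rats, the RT1-DMa points of all 4 Sham rats lie below them, and Sham rat 3 lies far above the other Sham rats for RT1-DMb.

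Cd74, the invariant chain, measured 663, 759, 601 and 988 CPM in Sham rats 1, 2, 3 and 5. In MI rats 1, 3, 4 and 5 it measured 330, 424, 363 and 238 CPM. Every MI rat was below every Sham rat. The log2 fold change was -1.15 (SE 0.24, adjusted p = 8.35e-04, edgeR quasi-likelihood test), a level 2.22-fold lower. Leaving out each rat in turn gave -1.27 to -0.99. With libraries scaled by total counts it was -0.58 (adjusted p = 0.0431), and -1.10 once the all-gene median on that scale was subtracted. iCarP+/Light+ rats 1, 2, 4 and 5 measured 337, 229, 177 and 188 CPM, all below every Sham rat. Treated rats 2, 4 and 5 were also below every MI rat, while rat 1 lay within the MI range. Against Sham the log2 fold change was -1.70 (SE 0.24, adjusted p = 3.59e-05), or 3.24-fold lower. Against MI it was -0.54 (SE 0.23, adjusted p = 0.161) with overlapping groups. That last comparison passed the test without iCarP+/Light+ rat 1 (-0.78, adjusted p = 0.0258), and without MI rat 3 it was -0.42 (adjusted p = 0.328).

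Neither RT1-D chain passed the test in MI against Sham. RT1-Da, the α chain of the D molecule, measured 66.5, 81.4, 57.2 and 164 CPM in the 4 Sham rats and 91.6, 117, 83.5 and 68.9 CPM in the 4 MI rats. iCarP+/Light+ rats had 101, 62.4, 45.9 and 52.6 CPM. The 3 groups overlapped, and Sham rat 5 was the highest of the 12. The log2 fold change was -0.03 (SE 0.32, adjusted p = 0.940) in MI against Sham, a sign that turned to 0.04 with DESeq2's size factors. It was -0.46 (SE 0.32, adjusted p = 0.420) in iCarP+/Light+ against MI and -0.49 (SE 0.32, adjusted p = 0.195) in iCarP+/Light+ against Sham, which passed without iCarP+/Light+ rat 1 (-0.78, adjusted p = 0.0495) and was -0.06 without Sham rat 5.

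RT1-Db1, the β chain that pairs with Da, measured 17.5, 19.9, 33.0 and 45.8 CPM in Sham rats. MI rats had 19.5, 28.3, 18.6 and 12.9 CPM and iCarP+/Light+ rats 22.9, 14.7, 10.6 and 10.4 CPM. Sham rats 3 and 5 were above all other rats, while Sham rats 1 and 2 lay within both other groups. It did not pass the test in MI against Sham (-0.55, SE 0.34, adjusted p = 0.170; 0.03 with libraries scaled by total counts) or in iCarP+/Light+ against MI (-0.43, SE 0.34, adjusted p = 0.485). It was lower in iCarP+/Light+ than in Sham rats (-0.98, SE 0.34, adjusted p = 0.0221), and this call was lost without any 1 of Sham rat 3 (adjusted p = 0.0522), Sham rat 5 (0.0919), iCarP+/Light+ rat 4 (0.0640) or rat 5 (0.0712) and with total counts (0.102).

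Both RT1-B chains were highest in Sham rats 3 and 5. RT1-Ba, the α chain of the B molecule, measured 4.55, 7.44, 29.9 and 16.6 CPM in Sham rats, so that rats 3 and 5 carried most of the group's level. MI rats had 4.93, 8.63, 6.99 and 3.14 CPM and iCarP+/Light+ rats 3.38, 5.74, 2.78 and 3.59 CPM. Sham rats 1 and 2 lay within the MI range. In MI against Sham the log2 fold change of -1.30 (SE 0.50, adjusted p = 0.0353) became -0.68 (adjusted p = 0.200) without Sham rat 3. The call was also lost without Sham rat 5 (adjusted p = 0.0702), MI rats 1, 4 or 5 (0.0812, 0.0514 and 0.0917) or iCarP+/Light+ rat 5 (0.0578), with log2 fold changes of -1.39 to -1.09. It did not pass with total counts (adjusted p = 0.196), limma-voom (0.0926) or the rats of 2 groups only (0.0803) either. In iCarP+/Light+ against Sham RT1-Ba was 3.76-fold lower (-1.91, SE 0.51, adjusted p = 0.00516), although Sham rat 1 lay within the treated group. This log2 fold change was -2.21 to -1.29 with 1 rat left out. Between iCarP+/Light+ and MI rats the difference was -0.61 (SE 0.51, adjusted p = 0.511).

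RT1-Bb, the matching β chain, had 7.01, 7.92, 20.8 and 17.3 CPM in Sham rats, 10.3, 13.8, 7.22 and 7.77 CPM in MI rats and 8.45, 7.61, 4.47 and 4.78 CPM in iCarP+/Light+ rats. Sham rats 3 and 5 were above the other 10 rats. RT1-Bb was lower in iCarP+/Light+ than in Sham rats (-1.06, SE 0.36, adjusted p = 0.0203), a call lost without Sham rat 3 (adjusted p = 0.0828), Sham rat 5 (0.0602) or iCarP+/Light+ rat 4 (0.0591) or 5 (0.0613) and with total counts (0.0846). The other differences were -0.44 (SE 0.36, adjusted p = 0.297; 0.16 with total counts) in MI against Sham and -0.62 (SE 0.36, adjusted p = 0.317) in iCarP+/Light+ against MI.

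RT1-DMa, the α chain of DM, moved the other way. Sham rats 1, 2, 3 and 5 had 9, 8, 2 and 3 reads on it, or 0.650, 0.546, 0.152 and 0.221 CPM, close to the lowest count that can be read. MI rats had 7.76, 5.77, 8.28 and 4.57 CPM, with no overlap between the groups. The log2 fold change was 4.03 (SE 0.42, adjusted p = 3.22e-06), or 16.4-fold higher. iCarP+/Light+ rats had 4.51, 2.30, 2.37 and 3.94 CPM. Each was above every Sham rat (3.02, SE 0.42, adjusted p = 3.30e-05) and below every MI rat (-1.01, SE 0.34, adjusted p = 0.0734). Without iCarP+/Light+ rat 1 the last difference passed (-1.20, adjusted p = 0.0463), and without MI rat 1 it was -0.92 (adjusted p = 0.171).

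RT1-DMb, the β chain, was read unevenly between rats of the same group. Sham rats had 0.289, 0.341, 9.87 and 0.442 CPM, MI rats 12.7, 1.89, 2.96 and 1.65 CPM, and iCarP+/Light+ rats 1.82, 14.2, 17.7 and 21.7 CPM. Sham rat 3, MI rat 1 and iCarP+/Light+ rats 2, 4 and 5 were high, and the other 7 rats measured 2.96 CPM or less. No comparison passed the test, with log2 fold changes of 0.83 (SE 1.07, adjusted p = 0.513), 1.51 (SE 1.02, adjusted p = 0.403) and 2.35 (SE 1.08, adjusted p = 0.0713) in MI against Sham, iCarP+/Light+ against MI and iCarP+/Light+ against Sham. Without Sham rat 3 it was 3.73 (adjusted p = 0.00927) in MI against Sham and 5.25 (adjusted p = 0.00112) in iCarP+/Light+ against Sham, and without MI rat 1 the first of these was -0.32 (adjusted p = 0.820). The comparison of iCarP+/Light+ with Sham also passed with limma-voom (3.53, adjusted p = 0.0414), with total counts (2.68, adjusted p = 0.0400) and without iCarP+/Light+ rat 1 (2.72, adjusted p = 0.0381).

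The count table holds a second row that its own description assigns to each DM chain, named LOC108348072 (ENSRNOG00000047854, chr20:3935529-3938915) for RT1-DMa and LOC108348139 (ENSRNOG00000051002, chr20:5227045-5234290) for RT1-DMb. The sources used here do not say how reads that fit both rows were counted, so levels of a single row are uncertain. For RT1-DMb the split differed widely: its own row held 3.70 to 7.27% of the reads of both rows in Sham rats 1, 2 and 5 but 96.3% in Sham rat 3. It held 87.2% in MI rat 1 against 7.83 to 30.1% in the other MI rats. In iCarP+/Light+ rats it held 40.8, 97.9, 96.3 and 63.8%. For RT1-DMa the split was narrower, between 25 and 60% of the reads of both rows in all 12 rats.

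**Figure D2:**
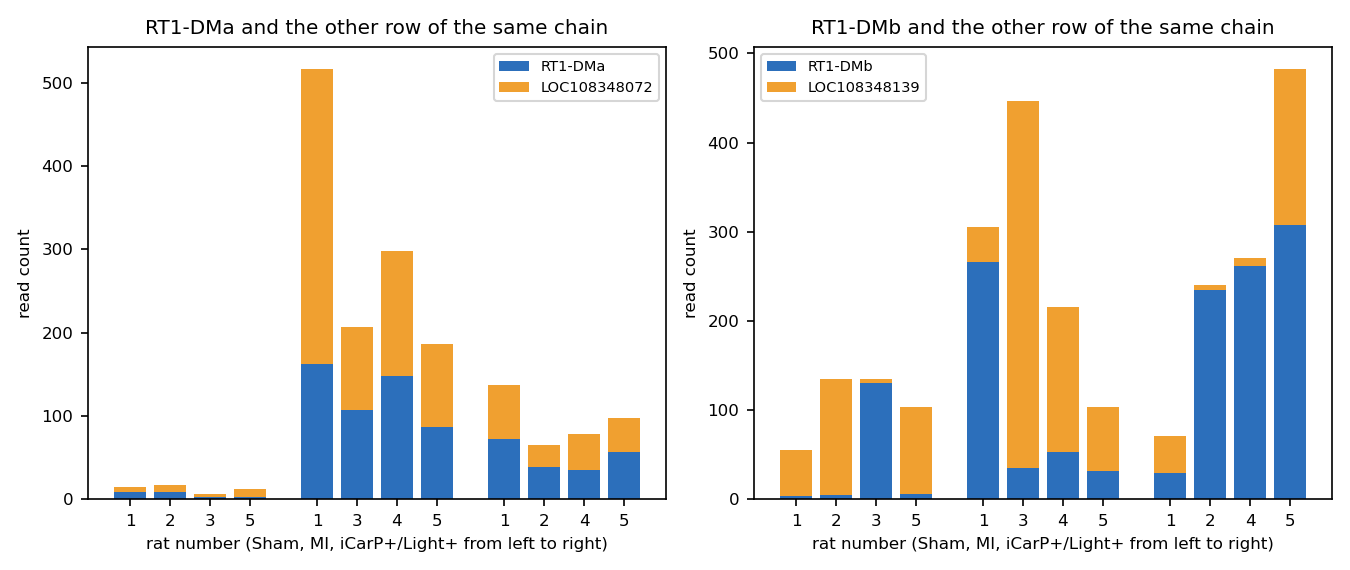
Read counts (not scaled) on the row of RT1-DMa or RT1-DMb (blue) and on the second row of the same chain (orange), stacked, in each of the 12 rats. The summed RT1-DMa bars are 6 to 17 reads in Sham and 186 to 517 reads in MI rats, and the blue share of the RT1-DMb bars differs between rats of the same group.

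With both rows added, a step chosen after the data had been seen, Sham rat 3 no longer stood apart for RT1-DMb (10.2 CPM, beside 3.98 to 9.22 CPM in the other Sham rats). The summed RT1-DMb level was 7.76 ± 2.75 CPM in Sham rats, 14.1 ± 7.72 in MI rats and 17.8 ± 12.3 in iCarP+/Light+ rats (SD, n = 4). It passed the test in no comparison (log2 fold changes 0.86, 0.34 and 1.20, with adjusted p = 0.178, 0.747 and 0.0655 from edgeR, in the order above). The summed RT1-DMa level was 0.896 ± 0.316 CPM in Sham rats, 15.6 ± 6.76 in MI rats and 6.15 ± 2.00 in iCarP+/Light+ rats (SD, n = 4). It rose in MI against Sham (4.11, SE 0.39, adjusted p = 1.48e-06) and was then lower in iCarP+/Light+ rats than in MI rats with an adjusted p that passed the threshold (-1.34, SE 0.33, adjusted p = 0.0142, edgeR).

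Ciita, the transactivator, measured 3.32, 7.99, 4.25 and 10.2 CPM in Sham rats, 7.95, 12.7, 5.99 and 6.22 CPM in MI rats and 5.70, 6.89, 5.56 and 4.08 CPM in iCarP+/Light+ rats. The groups overlapped, and Sham rats differed among themselves by more than the group means did. The log2 fold changes were 0.35 (SE 0.35, adjusted p = 0.398) in MI against Sham, -0.56 (SE 0.35, adjusted p = 0.353) in iCarP+/Light+ against MI and -0.21 (SE 0.35, adjusted p = 0.611; 0.09 with total counts) in iCarP+/Light+ against Sham. Leaving out each rat in turn gave 0.06 (without MI rat 3) to 0.66 (without Sham rat 5) in MI against Sham. With total counts, which put the median of all genes at 0.52 in MI against Sham, Ciita had a log2 fold change of 0.92 (adjusted p = 0.0343), or 0.40 relative to that median.

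In treated against untreated infarcts, edgeR's quasi-likelihood test called 0 of the 8 genes at an adjusted p below 0.05, against 13.6% of all genes tested (11.6% higher and 2.01% lower). At an unadjusted p below 0.05 the edgeR fit held 2 of them, RT1-DMa and Cd74, both lower, where 25.6% of all genes did (7.61% lower). DESeq2 and limma-voom each called 1, RT1-DMa (lower, adjusted p = 0.0151 and 0.0286), where they called 17.3% and 14.3% of all genes (5.05% and 2.32% lower). The fold changes of 7 of the 8 genes were below 0, with RT1-DMb the exception, and their median was -0.55 beside 0.01 over all genes tested. Ranges of rats were separate for 1 gene, RT1-DMa (lower), as they were for 16.4% of all genes (4.37% lower). Against Sham, iCarP+/Light+ rats had 1 gene higher (RT1-DMa) and 4 lower (Cd74, RT1-Ba, RT1-Bb and RT1-Db1), where 66.5% of all genes passed (33.5% higher and 33% lower). Ranges were separate for RT1-DMa (higher) and Cd74 (lower), and for 63.5% of all genes (31.9% higher and 31.6% lower). The median of the 8 was -0.74 beside 0.02 over all genes. Without Sham rat 3 this became 2 higher and 2 lower.

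**Figure D3:**
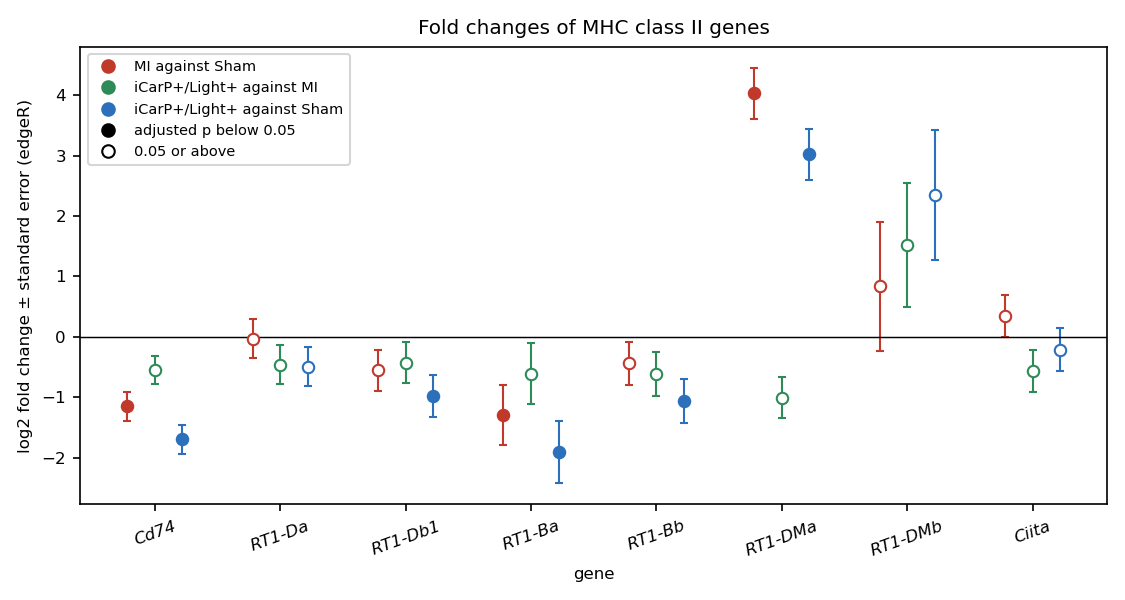
Log2 fold change of each of the 8 class II genes in 3 comparisons, from the edgeR fit. Error bars are standard errors, and filled points have an adjusted p below 0.05. No green point (iCarP+/Light+ against MI) is filled, and RT1-DMa lies at 4.03 and 3.02 in the comparisons with Sham while Cd74 lies at -1.15 and -1.70.

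Single genes were also compared rat by rat without the count model. In two-sided exact permutation tests of log2 CPM, 4 rats against 4, the smallest p that the 70 arrangements allow is 0.0286. Cd74 and RT1-DMa reached it against Sham in both ligated groups, and RT1-DMa also in iCarP+/Light+ against MI. After adjustment over the 24 tests the smallest value was 0.137 (exact permutation test), so none passed.

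Ratios of 2 genes within the same library do not depend on how libraries are scaled. Reads on Cd74 were 23.8, 28.4, 18.8 and 21.8 times those on Ptprc, the pan-leukocyte marker CD45, in Sham rats. The ratio was 1.02, 1.72, 1.21 and 1.00 in MI rats and 0.889, 0.470, 0.404 and 0.275 in iCarP+/Light+ rats. No 2 groups overlapped. The difference was 19.0-fold in MI against Sham (log2 -4.25) and 2.596-fold in iCarP+/Light+ against MI (log2 -1.38), each with p = 0.0286 in a two-sided exact permutation test and 0.0468 after adjustment over 18 ratio comparisons. Ptprc itself measured 26.8 to 45.4 CPM in Sham rats, 239 to 324 in MI rats and 379 to 681 in iCarP+/Light+ rats. It rose in MI against Sham (3.07, adjusted p = 2.09e-07) and again in iCarP+/Light+ against MI (0.84, adjusted p = 0.0152), the step in which Cd74 did not pass.

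RT1-Da and Cd74 parted between Sham and the infarct. The ratio of their reads was 0.1003, 0.107, 0.0950 and 0.166 in Sham rats, 0.278, 0.275, 0.230 and 0.289 in MI rats and 0.298, 0.273, 0.260 and 0.281 in iCarP+/Light+ rats. Both ligated groups lay above every Sham rat and overlapped each other. The ratio was 2.34-fold higher in MI than in Sham rats and 2.43-fold higher in iCarP+/Light+ than in Sham rats (p = 0.0286 and adjusted p = 0.0468 each, exact permutation test). Between iCarP+/Light+ and MI rats it differed by 0.06 on the log2 scale (p = 0.600, exact permutation test), with a SD of 0.15 in MI rats and 0.08 in iCarP+/Light+ rats (n = 4).

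Ciita also stood higher against Cd74 in the ligated groups, 2.99-fold in MI rats and 3.08-fold in iCarP+/Light+ against Sham (adjusted p = 0.0468 each, exact permutation test), with a difference of 0.04 (log2, adjusted p = 0.908, exact permutation test) between the ligated groups. RT1-DMa against Cd74 was higher by 5.44 and 4.96 on the log2 scale (adjusted p = 0.0468 each, exact permutation test), from 2 to 9 reads of RT1-DMa in Sham rats. Its difference of -0.47 between iCarP+/Light+ and MI rats had an adjusted p = 0.171 (exact permutation test). Cd74 against B2m, the light chain of class I molecules, was 2.04-fold lower in MI rats and 3.53-fold lower in iCarP+/Light+ than in Sham rats (adjusted p = 0.0468 each, exact permutation test). It was 1.74-fold lower in iCarP+/Light+ rats than in MI rats with overlapping groups (adjusted p = 0.0857, exact permutation test). RT1-Ba against RT1-Da was 0.523 in Sham rat 3 and 0.0336 to 0.101 in the other 11 rats, and no difference between groups passed (adjusted p = 0.119, 0.914 and 0.147, exact permutation test).

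**Figure D4:**
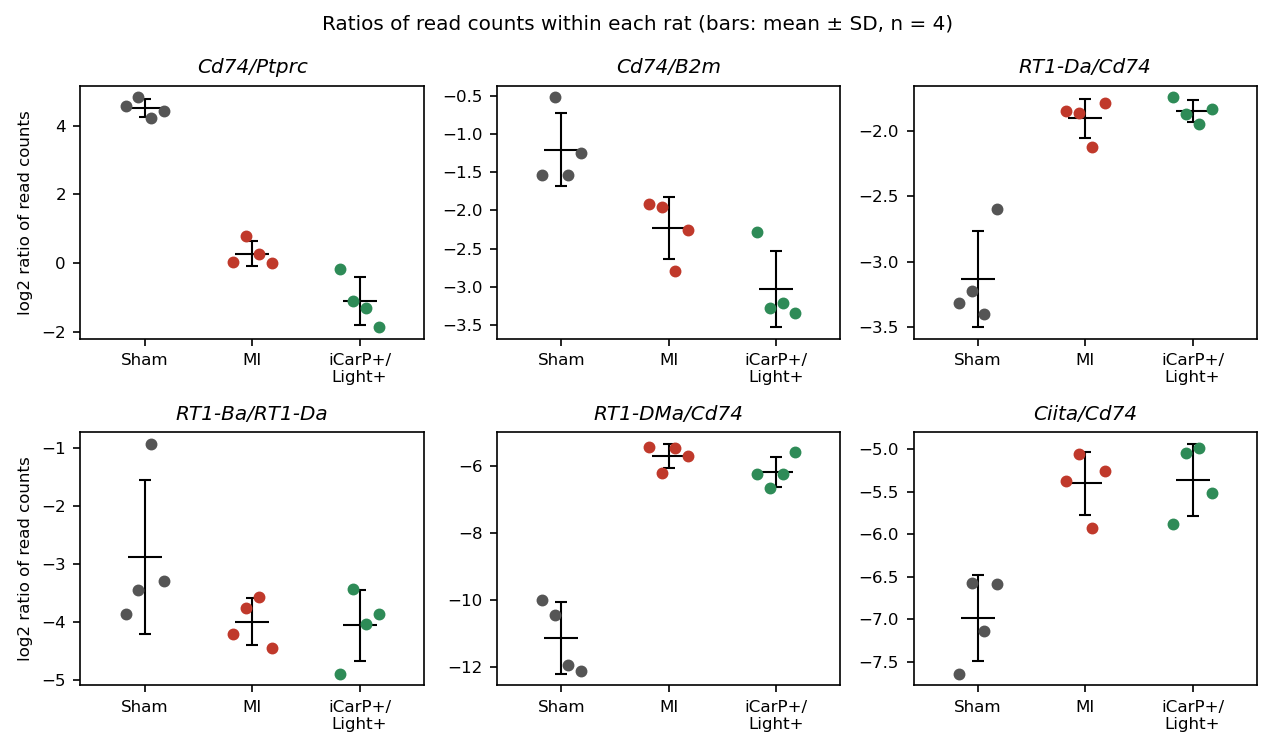
Log2 ratios of read counts of 2 genes within each rat, 1 panel per ratio with its own vertical axis. Points are rats, horizontal lines are means and error bars are SD (n = 4). In the RT1-Da/Cd74 panel the MI and iCarP+/Light+ rats share 1 range (0.230 to 0.298 on the linear scale) above the Sham rats (0.0950 to 0.166), and in the Cd74/Ptprc panel the 3 groups lie apart.

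Within groups, some of the genes varied together from rat to rat. With group means removed, the Pearson correlation of log2 CPM over the 12 rats was 0.916 between RT1-Da and Cd74, 0.881 between RT1-Db1 and RT1-Bb, 0.820 between RT1-Ba and RT1-Bb and 0.787 between RT1-Da and RT1-Db1. RT1-Ba correlated less with RT1-Da (0.217) and with Cd74 (0.274). Ciita correlated at 0.722 with RT1-Da and 0.616 with Cd74. RT1-DMa and RT1-DMb correlated at -0.466 with each other, and RT1-DMa at -0.590 with RT1-Ba. These are descriptions over 12 rats that share library scaling, and 8 genes give 28 such pairs. Other genes were ranked by likeness only where their mean was at least 1 CPM. The 6 genes whose deviations were most like the mean of the 7 genes other than Ciita were Snx25 (r = 0.945), AC134224.1 (0.931), Kctd9 (0.898), LOC100912262 (0.896), Tjp3 (0.876) and AC134224.2 (0.874). Without the DM genes, whose counts are uncertain, the list was led by other genes, Copg2 (r = 0.955) and AABR07049038.1 (0.899). The 3 most like Ciita were Inip (r = 0.931), Bbs1 (0.929) and Cd4 (0.920), the last being the T cell and myeloid co-receptor that binds class II.

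Other class II genes were few and low. RT1-DOa and RT1-DOb encode DO, which restrains DM, and measured 0.578 to 2.65 and 0.492 to 2.75 CPM over all rats. Neither passed in any comparison. RT1-Db2 and RT1-Ha were too low to be tested, at most 0.363 and 0.147 CPM in any rat.

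CIITA docks on RFX, NF-Y and CREB, whose genes are called the enhanceosome here. Of the 7 enhanceosome genes, 4 were lower and 0 were higher in MI than in Sham rats, where 33.6% and 30.2% of all genes were: Rfx5 (log2 fold change -0.68, adjusted p = 4.21e-04), Rfxank (-0.52, adjusted p = 0.0216) and Rfxap (-0.87, adjusted p = 0.0483), which form RFX, and Nfyc (-0.58, adjusted p = 2.12e-04) of NF-Y. Nfya and Nfyb, its other subunits, had log2 fold changes of 0.17 and 0.25 (adjusted p = 0.297 and 0.140). In iCarP+/Light+ against MI, 1 of the 7 was higher and 0 were lower, beside 11.6% and 2.01% of all genes. The higher gene was Creb1 (1.12, adjusted p = 0.00714), a factor of the X box region. The median of the list was -0.52 in MI against Sham and 0.27 in iCarP+/Light+ against MI.

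Ciita is induced through the interferon γ receptor. Ifng was too low to be tested, at 0 to 0.273 CPM over the 12 rats. Of 12 other genes listed as acting on Ciita, 6 were higher and 1 was lower in MI than in Sham rats, and 7 were higher and 0 lower in iCarP+/Light+ rats than in MI rats. Over all genes the shares were 30.2% higher and 33.6% lower in the first comparison and 11.6% and 2.01% in the second. The list mixes genes that raise Ciita with genes that restrain it or interferon signalling, so its counts give no direction for Ciita. Socs1 and Prdm1, of the restraining kind, were among the 7 higher in the second comparison (1.38 and 1.25, adjusted p = 0.0100 and 0.00400, edgeR). Socs1 was also higher in the first (1.02, adjusted p = 0.0145). Ifngr1, a chain of the interferon γ receptor, rose in both steps (0.50 and 0.59, adjusted p = 0.0214 and 0.0353). Jak1, a kinase of that receptor, rose in the second step (0.44, adjusted p = 0.0364) and had 0.14 (adjusted p = 0.352) in the first.

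Most of the listed lysosomal genes that cut the invariant chain or prepare antigen rose after infarction. Of 9 genes, 7 were higher and 0 lower in MI than in Sham rats, with a list median of 2.19, beside 30.2% higher, 33.6% lower and a median of -0.06 over all genes. Ctsb, the most abundant of these proteases, rose from 497 to 640 CPM in Sham to 2093 to 3314.5 CPM in MI rats (2.32, adjusted p = 1.29e-06). Ctsd rose by 2.07 and Ctsl by 1.71 on the log2 scale (adjusted p = 3.22e-06 and 8.58e-06). Ctss, which makes the last cuts in the invariant chain, measured 35.2 to 56.6 CPM in Sham and 146 to 309 CPM in MI rats (2.30, adjusted p = 7.39e-06). Against MI, iCarP+/Light+ rats had 1 gene of the list lower and 0 higher, beside 2.01% and 11.6% of all genes. The lower gene was Lgmn (-0.97, adjusted p = 0.0157), an endopeptidase.

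All 4 genes listed for class II turnover at the cell surface rose in MI against Sham (30.2% of all genes did), and in iCarP+/Light+ against MI 2 were higher and 1 was lower (11.6% and 2.01% of all genes). Marchf1, a ubiquitin ligase that sends class II to degradation, measured 0.217 to 0.663 CPM in Sham rats, 3.08 to 4.74 in MI rats and 7.26 to 15.1 CPM in iCarP+/Light+ rats. It rose in MI against Sham (3.39, adjusted p = 3.22e-06) and again in iCarP+/Light+ against MI (1.42, adjusted p = 0.00400). Il10, a cytokine that induces Marchf1, measured 0 to 0.221 CPM in Sham rats, 0.532 to 1.73 in MI rats and 21.3 to 83.6 CPM in iCarP+/Light+ rats (5.39 in iCarP+/Light+ against MI, adjusted p = 1.75e-05). Cd83, which opposes Marchf1, rose in MI against Sham (1.22, adjusted p = 0.00430) and was lower in iCarP+/Light+ rats than in MI rats (-1.22, adjusted p = 0.0197). Marchf8, a related ligase, rose by 0.24 (adjusted p = 0.0257) in MI against Sham and had -0.08 (adjusted p = 0.638) in iCarP+/Light+ against MI.

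Presenting cells show class II together with costimulatory molecules. Of 6 costimulatory genes, 2 were higher and 2 lower in MI than in Sham rats, beside 63.8% of all genes that passed there. In iCarP+/Light+ against MI, 2 were higher and 0 lower, beside 11.6% and 2.01% of all genes. Cd80 and Cd86, the ligands of CD28, rose in MI against Sham (3.03 and 1.14, adjusted p = 4.46e-05 and 9.53e-04). Cd274, which encodes PD-L1, measured 13.8 to 19.6 CPM in MI rats and 78.4 to 284 CPM in iCarP+/Light+ rats (3.41, adjusted p = 2.31e-05). Cd40 also rose in that comparison (0.79, adjusted p = 0.00357). Icoslg and Pdcd1lg2 were lower in MI than in Sham rats (-1.25 and -2.77, adjusted p = 1.45e-04 and 2.00e-06). Cd4 was lower in MI than in Sham rats (-0.71, adjusted p = 0.00127) and Lag3, another receptor for class II, was higher (2.71, adjusted p = 0.00439).

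Class I presentation, for comparison, had 4 of 14 genes higher and 1 lower in MI than in Sham rats, with a median of 0.22, where 30.2% and 33.6% of all genes were called. B2m measured 1089 to 2343 CPM in Sham rats, 1139 to 2528 in MI rats and 1629 to 2216 CPM in iCarP+/Light+ rats and did not pass (-0.11 and 0.17, adjusted p = 0.733 and 0.747). Calr and Pdia3, chaperones of class I loading and of the endoplasmic reticulum in general, rose in MI against Sham (1.29 and 1.09, adjusted p = 1.72e-06 and 4.03e-05). Against MI, iCarP+/Light+ rats had 1 of these genes lower and 0 higher in the edgeR test, beside 2.01% and 11.6% of all genes.

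Markers of the cells that could carry class II also differed between the groups, many of them in the direction opposite to Cd74, and their part in these results was not tested. The counts of markers below stand beside 30.2% higher and 33.6% lower of all genes in MI against Sham, and 11.6% and 2.01% in iCarP+/Light+ against MI. All 4 pan-leukocyte markers were higher in MI than in Sham rats (summed CPM 123 to 195 in Sham rats, 1014 to 1427 in MI rats and 1658 to 3180 in iCarP+/Light+ rats). Of 12 macrophage markers, 7 were higher in MI than in Sham (summed CPM 514 to 744 and 1015 to 1836) and 6 were lower and 1 higher in iCarP+/Light+ rats than in MI rats (719 to 977 summed CPM). Csf1r, the macrophage growth factor receptor, measured 101 to 152 CPM in Sham rats, 352 to 525 in MI rats and 204 to 375 CPM in iCarP+/Light+ rats. Of 8 dendritic cell markers tested, 4 were higher and 3 lower in MI than in Sham rats (summed CPM 55.4 to 74.4 and 66.5 to 98.1). Clec10a, found on dendritic cells and macrophages, was lower in iCarP+/Light+ rats than in MI rats (-2.02, adjusted p = 2.02e-04), and in MI against Sham it had 0.49 (adjusted p = 0.105). Zbtb46 and Clec9a were lower in MI than in Sham rats (-1.06 and -0.53, adjusted p = 0.00140 and 0.0269), as was Xcr1. The 4 that were higher were Flt3 (2.95, adjusted p = 6.06e-06), Batf3, Ccr7 and Siglech. The B cell markers summed to 2.89 to 5.84 CPM in Sham rats, 7.39 to 11.9 in MI rats and 14.0 to 15.1 CPM in iCarP+/Light+ rats, with Ms4a1 at 0 to 1.63 CPM over all rats.

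All 4 monocyte and all 5 T cell markers tested were higher in MI than in Sham rats, and 1 of each list was lower in iCarP+/Light+ rats than in MI rats. All 5 neutrophil markers rose in both steps, from summed CPM of 6.36 to 11.2 in Sham to 323 to 626 in MI rats and 2182 to 6583 CPM in iCarP+/Light+ rats. All 5 cardiomyocyte, all 4 endothelial, 4 of 5 fibroblast and 5 of 6 red blood cell markers were lower in MI than in Sham rats. In iCarP+/Light+ against MI, 4 red blood cell markers were higher, 1 fibroblast marker was higher and 0 endothelial or cardiomyocyte markers passed at an adjusted p below 0.05 in edgeR.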

How the data were processed

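RNA-seq of the infarct region (LV in Sham rats) of 12 rats was used, 4 per group, grouped by the treatment named in the labels. The authors deposited raw read counts per gene. Libraries were made with the NEBNext Ultra RNA kit, and the submitters' processing notes name HISAT2, featureCounts and rn6. Versions, annotation release and strand setting are not given in the sources used here, and the labels name no batch.

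The analysis used edgeR 4.0.16 under R 4.3.3 (filterByExpr, minimum count 10, TMM, quasi-likelihood test, 1 mean per group). Total counts were 14064414 to 17136958, and the floor of 3 counts covers counting error only. Marchf1 and Marchf8 were matched by Ensembl identifier because their symbols were stored as dates. Ratios and single genes were compared by exact permutation tests (scipy 1.17.1). The 8 genes and all lists were chosen with earlier results of these data known. Beside the 8 genes, the 3 most abundant tested genes of each list, or all of a list of 6 or fewer, and the genes most like the 8 could be named. Rfxank, Rfxap, Nfyb, Creb1, Ifng, Socs1, Prdm1, Ctss, Lgmn, Xcr1, Flt3, Batf3, Ccr7, Siglech, Ms4a1 and the genes most like the 5 members other than DM and Ciita were named beyond this rule, after their values were seen. RT1-Hb, Cd79a, Timd4, Ccr2, Chil3 and Pecam1 matched no row, and values of 2 single list genes are not reported here. Scripts were tested on simulated data. Alternatives were DESeq2's size factors, total counts, DESeq2 1.42.0, limma-voom (limma 3.58.1), 2 other filters, no mitochondrial genes, 2 groups only, a replicate block, each rat left out, and, added after the data had been seen, both rows of each DM chain summed. Samples were taken as 1 rat each, which the labels do not state outright, so p-values measure the spread between these 12 samples. Within groups, pairs of rats differed by a chi-square per gene of 14.1 to 114, where counting noise gives about 1.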

Additional observations from a re-analysis of the deposited data

Results flagged for a closer look

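A sample was looked at again when its gap to the nearest rat on the log2 scale, divided by the range of its group of 4, was above Dixon's critical value for 4 samples. In 42 groups of 4 rats, 2 such samples were found and 2.1 are expected by chance. RT1-DMb in Sham rat 3 had a ratio of 0.901, at 9.87 CPM beside 0.289 to 0.442 CPM in the other Sham rats. In that rat RT1-DMb held 96.3% of the reads of both rows of its chain. The ratio of Cd74 to B2m in iCarP+/Light+ rat 1 had a value of 0.868 on this measure, with 0.205 beside 0.0984 to 0.108 in the other treated rats. The same rat had the highest level of its group for Cd74, RT1-Da, RT1-Db1, RT1-Bb and RT1-DMa and the lowest for RT1-DMb.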

How the results depend on the processing

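Standard errors were 0.23 to 1.08 (log2) with 4 rats a group, and changes well above them could also fail to pass. Cd74 (-0.54, SE 0.23) and RT1-DMa (-1.01, SE 0.34) in iCarP+/Light+ against MI were such cases. RT1-DMa in Sham rests on 2 to 9 reads a rat. Cd74 (lower) and RT1-DMa (higher) kept their calls against Sham in every alternative in which they were tested, and a minimum of 10 counts in every sample left RT1-DMa and RT1-DMb untested. Every ratio that had passed had groups without overlap, so leaving out a rat could not change its direction. RT1-Da in MI against Sham, at -0.03, became 0.039 with DESeq2's size factors, 0.55 with total counts, 0.039 with DESeq2, 0.070 with limma-voom, 0.047 with at least 10 counts in every sample, 0.11 with 2 groups only and 0.077 with the replicate block. Total counts also turned RT1-Db1 (0.033) and RT1-Bb (0.16) in MI against Sham and Ciita (0.094) in iCarP+/Light+ against Sham, while moving the median of all genes to 0.52, -0.25 and 0.33 in the 3 comparisons. Relative to that median RT1-Db1 and RT1-Bb were at -0.49 and -0.36. All genes then split into 7706 higher and 2777 lower, 1205 and 2731, and 6663 and 3640, against 4553 and 5080, 1747 and 304, and 5057 and 4988 with TMM. Of the 8 genes in iCarP+/Light+ against MI, 0 passed in the reported fit, 2 with total counts, 1 each with DESeq2, limma-voom and the summed DM rows, and 0 to 2 with a rat left out (2 without iCarP+/Light+ rat 1). In iCarP+/Light+ against Sham, 5 passed, 3 with the replicate block and 3 to 7 with a rat left out (3 without Sham rat 5, iCarP+/Light+ rat 4 or rat 5). The split of 1 higher and 4 lower there became 2 and 2 with total counts and 2 and 4 with limma-voom, and that of 1 higher and 2 lower in MI against Sham became 2 and 1 with total counts. With a rat left out, RT1-Da in MI against Sham was -0.20 to 0.40, RT1-DMb in MI against Sham -0.32 to 3.73 and Ciita in iCarP+/Light+ against Sham -0.43 to 0.10. Rats with the same number are different animals, and their deviations from the group means correlated at -0.150 to 0.0654, so the numbers do not pair them. Under the replicate block RT1-Ba in MI against Sham (adjusted p = 0.0809) and RT1-Db1 and RT1-Bb in iCarP+/Light+ against Sham (0.108 and 0.126) did not pass. Where the cause of a change is not given by the setting itself, it was not tested.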
